A study of Mus musculus with 15 samples.

Results

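E7 clone 2 (E7.2) was compared with E6 clone 2 (E6.2), a pair of clonal lines in which CRISPR/Cas9 had mutated Foxp1 in A20 cells, a B-cell lymphoma line of BALB/c mice. All 6 RNA-seq libraries titled for these clones were taken, 3 for each line, out of 15 in the series. E6.2 carries its Foxp1 mutation in exon 6 and E7.2 in exon 7. The study reports that both mutations shift the reading frame and bring in an early stop codon. The 9 other libraries, 3 each from parental A20 cells, E6.1 and E7.1, share the estimate of the spread and give levels for orientation. Neither line is a wild-type control for the other. The lines were made by electroporation of a plasmid for the guide and Cas9, a sort for GFP and dilution to single cells, so each line is 1 clone, and the targeted exon cannot be told apart from any other difference between the clones. The replicates of a line came from separate passages, and p-values measure the spread between passages of a clone, not between independent clones.

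Foxp1 is a forkhead transcription factor that binds DNA through a winged-helix domain and acts mostly as a repressor. It is needed for early B-cell development, its level falls as B cells enter germinal centres, and it restrains the switch to plasma cells. Within B cells the antigen receptor signals through Cd79a and Cd79b and a chain of kinases and adaptors, while Irf4 and Prdm1 drive the plasma cell programme.

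The 6 libraries held 26328054 to 37754704 read pairs assigned to genes, and 13904 genes passed the low-count filter. Levels are given as normalised CPM, a gene's counts scaled to the size of its library after TMM scaling, in the order of replicates 1, 2 and 3. Replicate 3 of both lines stood apart. It lay at least 2-fold from the mean of the other 2 replicates in 3275 genes of E6.2 and 2328 genes of E7.2, while the figures for replicates 1 and 2 were 2317 and 1318 in E6.2 and 763 and 851 in E7.2. For each library of the A20 parental, E6.1 and E7.1 lines it was 359 to 1165 genes. E6.2 replicate 1 was thus off in nearly as many genes as E7.2 replicate 3. In 1192 genes this held in both lines, and in 1055 of them the direction was the same. In E6.2 replicate 1 the ribosomal RNA-overlapping features Gm42418, Lars2, mt-Rnr1 and mt-Rnr2 took 16.3% of its counts and 0.429% to 0.954% of the counts of the other 5 libraries. No pair of replicates agreed within sampling noise. Counts of called genes are therefore also given without replicate 3 of both lines.

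The markers of B cells were present. The 8 genes listed as B-cell markers summed to 1523 to 1568 CPM in E6.2 and 1910 to 1986 CPM in E7.2. Of these sums Ptprc, which is not confined to B cells, gave 439 to 600 CPM in E6.2 and 469 to 731 CPM in E7.2. The T-cell markers Cd3e and Trac, the NK-cell markers Ncr1 and Gzma, the macrophage marker Lyz2 and the fibroblast marker Col1a2 were at 0 counts in all 6 libraries. The T-cell markers Cd3d and Cd3g had at most 1 count in any library. Klrb1c, also an NK-cell marker, was at 0.752 to 2.01 CPM in E6.2 and 0.642 to 1.64 CPM in E7.2. The 4 macrophage markers summed to 0.451 to 1.33 CPM in E6.2 and 1.92 to 3.39 CPM in E7.2, mostly from Adgre1, and the 3 erythroid markers to 0.271 to 3.11 CPM in E6.2, mostly Alas2, and 0.160 to 0.317 CPM in E7.2. The fibroblast marker Dcn, a matrix proteoglycan, was at 0 in E6.2 and at 0.211, 0.160 and 0.449 CPM in E7.2, where Col1a1 stayed at or below 0.192 CPM. Whether a few other cells took part in any result was not tested.

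Between E7.2 and E6.2, 312 of the 13904 genes, or 2.24%, passed an adjusted p of 0.05 in edgeR's quasi-likelihood test. Of these, 211 were higher in E7.2, which is 1.52% of the genes tested, and 101 were lower, which is 0.726%. The median log2 fold change was 1.49 among the higher genes, 73 of which differed by at least 4-fold, and -1.68 among the lower genes, 44 of which did. The 3 E7.2 libraries lay above all 3 E6.2 libraries in 210 of the 211 higher genes and below them in 99 of the 101 lower genes, while 7.62% and 7.59% of all tested genes were separated in those directions. The calls came from these same libraries, so that separation describes the called genes and is no further support. Over all genes the median difference was -0.04 on the log2 scale. Without replicate 3 of both lines 2435 of 14284 genes passed (17.0%), 1397 higher (9.78%) and 1038 lower (7.27%), and 307 of the 312 genes were among them. Leaving out E6.2 replicate 3 alone gave 2245 calls, of which 1011 were higher, and leaving out E7.2 replicate 3 gave 848. Without E6.2 replicate 1, E7.2 replicate 1 or E7.2 replicate 2 the calls fell to 199, 161 and 151. With only the 6 libraries in the fit 62 genes passed, and 42 of the 70 called genes named here that could be tested in it lost the call.

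**Figure D1:**
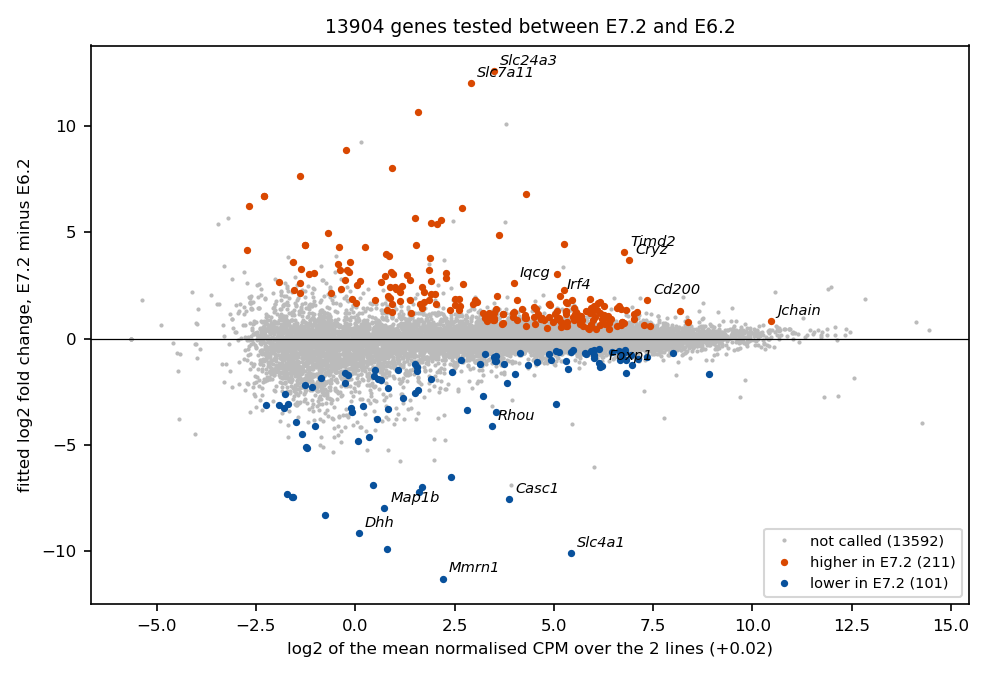
Fitted log2 fold change of E7.2 against E6.2 for each of the 13904 genes tested, over the log2 of the mean normalised CPM of the lines. Orange points are the 211 genes called higher in E7.2, blue points the 101 called lower, and grey points the 13592 not called; genes absent from one line lie at the top and bottom.

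The other libraries give the place of each line within the series. Of the 211 genes higher in E7.2, the 3 E6.2 libraries lay below all 12 other libraries in the series in 129, and the 3 E7.2 libraries lay above all 12 others in 36, with 14 genes in both counts. Of the 101 genes lower in E7.2, E6.2 lay above all 12 others in 40 and E7.2 below all 12 in 10. Among all tested genes E6.2 lay below the other 12 libraries in 1.63% and above them in 0.892%, and E7.2 above them in 0.568% and below them in 0.453%. In 60 of the 211 higher genes and 51 of the 101 lower genes neither line stood at the edge in the direction of its call. In both directions, called genes placed E6.2 at the edge of the series more often than E7.2, and so did all tested genes. The calls came from these same libraries, so this is a description of these 5 lines with no test.

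Foxp1 itself (6:98925338-99522721, minus strand, GRCm38) differed between the lines. Its transcript stood at 109, 104 and 105 CPM in E6.2 and at 37.1, 39.6 and 52.3 CPM in E7.2. The groups did not overlap, and E7.2 was 2.46-fold lower (log2 fold change -1.30, SE 0.20, edgeR adjusted p 0.00258). The parental cells held 138 ± 32.7 CPM (SD, n = 3), E6.1 104 ± 4.60 and E7.1 56.8 ± 13.0, so both exon 7 clones had lower mean transcript levels than the other lines. The difference passed the threshold in every alternative run. A frameshift of a few bases leaves a transcript that is still counted, so these counts do not check the mutations. Of the other 11 forkhead genes tested none passed, beside 2.24% of all genes called, and the median of the 12 was -0.09. Foxm1, a factor of mitotic genes, passed as higher in E7.2 without replicate 3 of both lines (log2 fold change 0.53, adjusted p 0.0135). In that fit Foxp1 was lower and the median was 0.02. Foxm1 and Foxp1 were the 2 of 12 called there, a share close to the 17.0% of all genes.

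Among the largest differences were genes with no reads in E6.2. Slc7a11, the light chain of the cystine-glutamate exchanger that feeds glutathione synthesis, was at 0 counts in all 3 E6.2 libraries and at 20.4, 20.8 and 3.69 CPM in E7.2. E7.2 was at least 127-fold higher with E6.2 set to a floor of 3 counts a library (edgeR adjusted p 0.000297). Parental cells held 16.4, 40.7 and 31.8 CPM, E6.1 27.2 to 38.0 CPM and E7.1 6.05 to 16.6 CPM, so E6.2 was the line without the transcript. Slc24a3, a sodium, potassium and calcium exchanger, was at 0 in E6.2 and at 11.0, 11.5 and 44.7 CPM in E7.2, at least 190-fold higher (adjusted p 3.75e-05). The highest of the E7.2 libraries was replicate 3, and without it the bound was 95.3-fold. Adgrl2, an adhesion receptor of the latrophilin family, was at 0 against 6.50, 7.07 and 4.23 CPM (at least 50.2-fold, adjusted p 4.39e-06), and Atp6ap1l at 0 against 1.82, 1.71 and 1.48 CPM (at least 14.1-fold, adjusted p 1.79e-05). For all 4 genes E6.2 lay below the 12 other libraries. The call for Slc7a11 was lost in the fit of only the 6 libraries, at an adjusted p of 0.0533.

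The stretches of 250 bases before the RefSeq starts of Slc7a11 and of Dhh, a gene silent in E7.2, are shown because the transcripts were present in one line and absent from the other; the genome build is GRCm38.p6. Capitals mark matches on either strand to the forkhead-type motif TGTTTAC and to the C/EBP-ATF motif TGATGNAA, which do not overlap here. The Slc7a11 stretch, chr3:50443614-50443863 on the minus strand, reads
Slc7a11: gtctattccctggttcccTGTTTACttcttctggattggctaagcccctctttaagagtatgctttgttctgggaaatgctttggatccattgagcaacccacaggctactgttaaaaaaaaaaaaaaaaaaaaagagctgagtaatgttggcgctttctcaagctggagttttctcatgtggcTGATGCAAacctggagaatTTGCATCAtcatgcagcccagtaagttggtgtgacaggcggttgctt
and the Dhh stretch, chr15:98898541-98898790 on the minus strand, reads
Dhh: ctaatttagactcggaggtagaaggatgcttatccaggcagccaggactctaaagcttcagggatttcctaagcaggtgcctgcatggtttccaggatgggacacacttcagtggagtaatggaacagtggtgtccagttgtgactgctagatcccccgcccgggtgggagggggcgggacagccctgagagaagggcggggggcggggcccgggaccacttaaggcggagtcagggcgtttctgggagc
The Slc7a11 stretch held 1 forkhead-type match, 232 bases before the start, and 2 C/EBP-ATF matches, 66 and 47 bases before it and on opposite strands. The Dhh stretch held neither. Of the 32851 windows of the same length in the table, 3.17% held the forkhead-type motif and 3.45% the C/EBP-ATF motif. The stretches held 2 and 9 CpG dinucleotides, and the median of all windows was 6. A match is a match of letters only, and whether any factor binds there was not tested.

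Several other genes were close to silent in E6.2. H1fx, a linker histone, had 1 count in E6.2 (0, 0.0302 and 0 CPM) and 5.04, 4.77 and 1.48 CPM in E7.2, a ratio of 358 with a 95% counting interval of 63.9 to 14180. The fitted log2 fold change of H1fx moved from 8.03 to 10.02 without E6.2 replicate 2, the library with the count. E7.1 was also low, with a mean of 0.0746 CPM. Sumf2, a modifier of sulfatases, stood at 0.276, 0.212 and 0.0601 CPM in E6.2 and 15.5, 15.04 and 7.28 CPM in E7.2, a 70.0-fold difference (log2 fold change 6.13, SE 0.44, adjusted p 2.39e-06), and its E6.2 libraries lay below all 12 others. Jaml, a junctional adhesion molecule of leukocytes, and Espnl, an espin-like actin-binding protein, stood apart at both ends, with E6.2 below and E7.2 above every other library. Jaml was at 0.0394, 0 and 0.271 against 5.84, 4.80 and 6.03 CPM, and Espnl at 0.315, 0.0302 and 0.210 against 7.47, 8.37 and 10.4 CPM. Single libraries moved these folds: the log2 fold change of Jaml was 5.65, but 8.06 without E6.2 replicate 3 and 5.06 without E6.2 replicate 2, and that of Espnl was 5.59, but 6.18 without E6.2 replicate 1. Bco1, a carotenoid-cleaving oxygenase, was 43.4-fold higher in E7.2 but was also near 0 in E7.1, at 0.0894 CPM. Kank4os, a long noncoding RNA, was 41.9-fold higher, with 0, 0.514 and 0.0301 CPM in E6.2 and 8.42, 8.50 and 7.57 CPM in E7.2, and its log2 fold change of 5.39 was 8.64 without E6.2 replicate 2. The calls of Jaml and Kank4os were lost when only the 6 libraries were fitted (adjusted p 0.0600 and 0.101).

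Some of the genes higher in E7.2 were abundant. Timd2, a cell-surface receptor of the T-cell immunoglobulin and mucin family, was at 7.83, 11.6 and 17.1 CPM in E6.2 and 199, 183 and 236 CPM in E7.2, 16.9-fold higher (log2 fold change 4.08, SE 0.27, adjusted p 9.50e-07). The other 3 lines lay between 100 and 204 CPM, so the low line was E6.2. Cryz, a quinone reductase, was at 15.3, 19.1 and 16.7 CPM in E6.2 and 181, 191 and 289 CPM in E7.2 (12.9-fold, adjusted p 5.17e-07). Here E7.1 was also low, at 13.1, 21.3 and 21.0 CPM, and E7.2 was the highest line. Iqcg, a calmodulin-binding protein of cilia, rose from 4.57, 5.11 and 3.73 to 24.1, 26.0 and 31.5 CPM (6.09-fold). Cd200, a ligand that inhibits myeloid cells, was at 59.8, 80.1 and 79.3 CPM in E6.2 and 262, 255 and 246 CPM in E7.2 (3.49-fold, log2 fold change 1.80, SE 0.14, adjusted p 4.39e-06). Fcmr, the IgM Fc receptor, was at 31.9, 31.3 and 35.2 CPM against 98.2, 98.1 and 122 CPM (3.23-fold, adjusted p 5.34e-06). For Iqcg, Cd200 and Fcmr the 2 lines held the lowest and the highest libraries of the series. None of these 5 genes lost its call in any alternative.

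**Figure D2:**
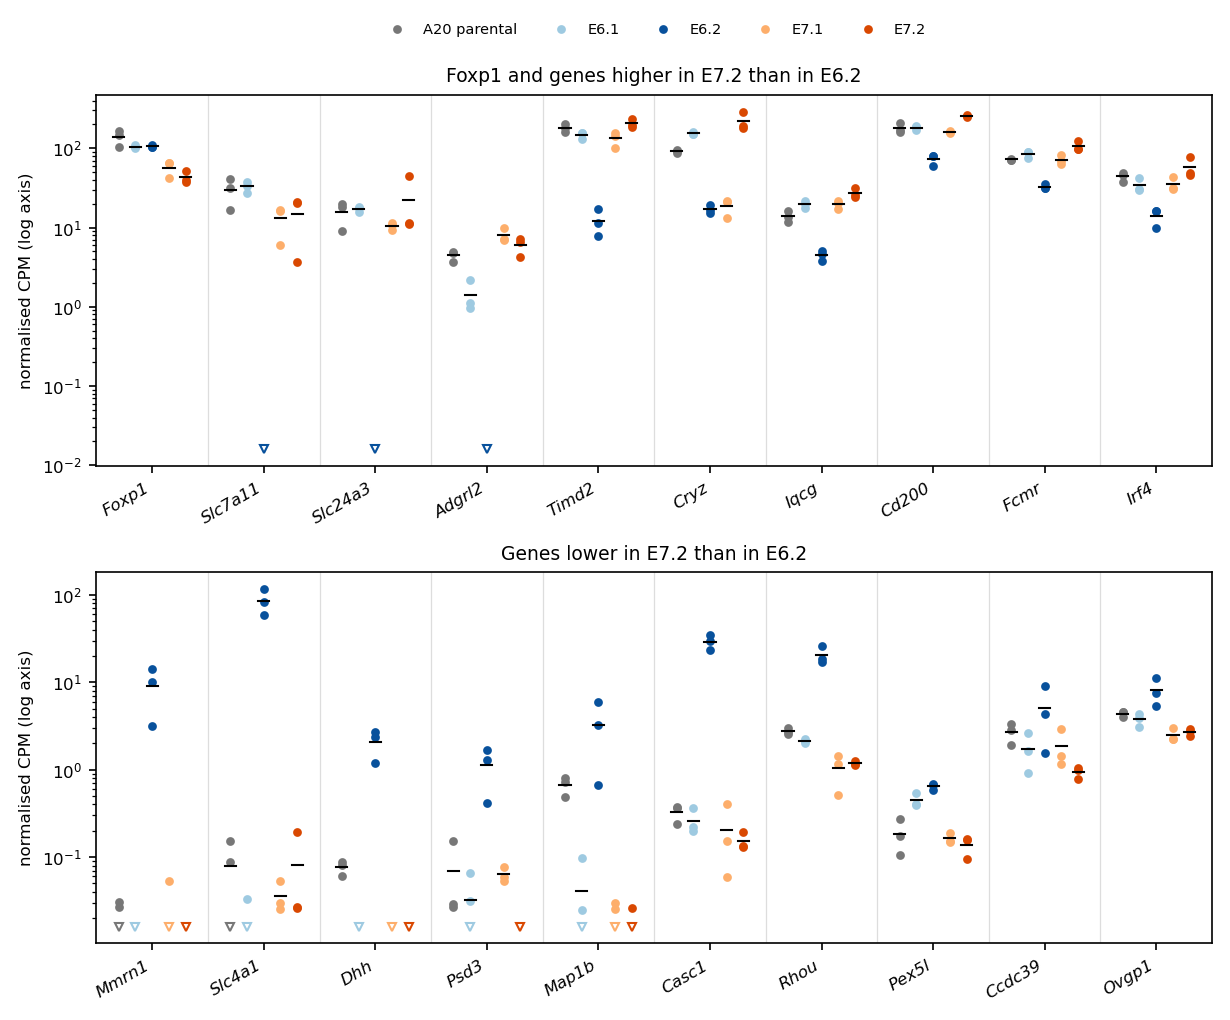
Normalised CPM on a log axis of 20 genes in all 15 libraries, coloured by line, with black dashes at the line means; open triangles stand for libraries under 0.02 CPM. E6.2 (dark blue) is the lowest line for Slc7a11, Slc24a3, Adgrl2, Timd2, Iqcg, Cd200, Fcmr and Irf4 and the highest for Mmrn1, Slc4a1, Casc1 and Rhou, and Foxp1 is lower in both exon 7 clones than in the other lines.

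Among the genes lower in E7.2, most of the extreme ones had their high level in E6.2. Slc4a1, the anion exchanger of red cells, stood at 59.3, 83.0 and 116 CPM in E6.2 and at 0.0264, 0.0267 and 0.192 CPM in E7.2 (log2 fold change -10.08, SE 0.60, adjusted p 5.17e-07), and no library of the other 3 lines passed 0.151 CPM. Without E7.2 replicate 3 the log2 fold change of Slc4a1 was -11.45. Of the erythroid markers, Hba-a1 was at 0 counts and Hbb-bs at no more than 1 count in the E6.2 libraries, and Alas2 was at 3.11, 0.242 and 0.271 CPM. Casc1, a dynein-associated protein of cilia, stood at 34.5, 23.2 and 30.04 CPM against 0.132, 0.133 and 0.192 CPM (log2 fold change -7.56, SE 0.48, adjusted p 7.17e-07). Mmrn1, a platelet and endothelial matrix protein, stood at 14.3, 10.04 and 3.13 CPM in E6.2 and 0 counts in E7.2, at least 94.98-fold lower (adjusted p 0.000566). Dhh, the desert hedgehog ligand, was at 2.68, 2.36 and 1.20 CPM against 0 (at least 21.6-fold lower, adjusted p 0.00125). Rhou, a small GTPase, was at 16.9, 18.4 and 25.9 CPM against 1.14, 1.15 and 1.25 CPM (17.3-fold lower), and the uncharacterised 2810408I11Rik at 64.4, 56.7 and 56.1 CPM against 9.98, 8.05 and 2.69 CPM (8.52-fold lower). In each of these 6 genes the E6.2 libraries lay above all 12 others, and each passed in every alternative.

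A few lower genes followed other patterns. Gm10863, a long noncoding RNA, was at 7.95, 6.41 and 4.54 CPM in E6.2 and 0.0528, 0.0533 and 0.0321 CPM in E7.2, and here E7.2 lay below every other library of the series. Gm15128, a multicopy gene of the X chromosome, was at 5.43, 6.56 and 6.104 CPM against 0.0792, 0.0267 and 0, and E7.1 was at 0 in all its libraries as well. Its log2 fold change of -7.21 was -8.38 without E7.2 replicate 1. Fgfr1op, a centrosomal protein, was 2.50-fold lower in E7.2 (85.5, 106 and 114 against 39.4, 36.6 and 46.4 CPM, adjusted p 9.10e-05), and E6.1 stood at 46.2, 40.1 and 47.4 CPM. Psd3 and Gm15991 were at 0 counts in E7.2 and at 1.69, 1.30 and 0.421 CPM and 3.50, 3.63 and 3.28 CPM in E6.2. Gm15991 (8:67956770-67978051) lies within Psd3 on the opposite strand, and the counting did not use strand. Pairs over exons of both were not counted, and other pairs within the overlap may come from either gene. Gm14308 is one of a cluster of similar zinc-finger genes, and pairs that mapped to several of them were not counted. It had 1.05 to 4.41 CPM in E6.2 and 2 counts in E7.2, a ratio of 142 (38.8 to 1177, 95% counting interval). Its call was lost without any one of E6.2 replicate 1 or 2 and E7.2 replicate 1 or 2, with adjusted p of 0.0622 to 0.175, and its fitted log2 fold change of -6.87 was -9.51 without E7.2 replicate 3 and -6.26 without E6.2 replicate 2.

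Map1b and Ovgp1, which the study lists as the closest sequence matches to the exon 6 guide, both differed, and E6.2 was the higher line for each. The study reports no altered transcript expression for either and looked for mutations in such regions in its RNA-seq reads. Its expression analysis set each clone against parental cells, unlike the comparison here. Whether the guide edited these genes was not tested here. Map1b, a microtubule-associated protein, was at 5.90, 3.27 and 0.662 CPM in E6.2 and had 1 count in E7.2, a ratio of 325 (57.9 to 12890, 95% counting interval, adjusted p 0.000992). Parental cells held 0.671 CPM and E6.1 0.0410 CPM. Ovgp1, an oviduct glycoprotein, was at 11.3, 5.29 and 7.61 CPM against 2.75, 2.40 and 2.95 CPM (2.98-fold lower in E7.2, log2 fold change -1.58, SE 0.27, adjusted p 0.00546). Mean levels of Ovgp1 were 4.38 CPM in parental cells, 3.77 CPM in E6.1 and 2.50 CPM in E7.1. The Ovgp1 call was lost when only the 6 libraries were fitted (adjusted p 0.174), as was that of Map1b (0.0571). The fitted log2 fold change of Map1b, -7.98, was -7.22 without E6.2 replicate 1 and -9.79 without E7.2 replicate 1. For the exon 7 guide the study lists Rhpn2, Zfp804b and Tmem194. Zfp804b was at 0 counts in all 15 libraries. Rhpn2 and the genes now named Nemp1 and Nemp2, of which Nemp1 was long called Tmem194, had log2 fold changes of 0.27, 0.04 and 0.02 and overlapped between the lines. Phyhip, Lgr6, Iglv2 and Meioc, low in all 4 mutant clones against parental cells, did not pass either, with adjusted p of 0.429, 0.944, 0.985 and 0.250. Their levels in both lines were 0.0264 to 0.748 CPM.

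Genes of B-cell differentiation were called in 1 direction. Of the 25 tested members of the list of B-lineage and differentiation factors, 5 were higher in E7.2 and none lower, beside 2.24% of all genes called, and the list median was 0.45 against -0.04 for all genes. Without replicate 3 of both lines 7 were higher and 1, Zbtb20, was lower, with the same median of 0.45, beside 17.0% of genes called. Irf4, a factor of germinal-centre exit and plasma cell fate, was at 16.4, 16.3 and 9.86 CPM in E6.2 and 46.4, 48.1 and 77.6 CPM in E7.2, 4.05-fold higher (log2 fold change 2.02, SE 0.25, adjusted p 0.000465). Prdm1, which encodes the plasma cell repressor Blimp-1, was at 1.54, 2.15 and 1.98 against 5.68, 6.88 and 21.0 CPM (5.88-fold, adjusted p 0.00856). The E6.2 libraries lay below all 12 others for both, and replicate 3 was the highest of the E7.2 libraries. Without E7.2 replicate 3 the log2 fold change of Prdm1, 2.56 with all libraries, was 1.76, and its call was lost when only the 6 libraries were fitted (adjusted p 0.145).

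Jchain, which joins secreted IgM and IgA, was at 859, 1056 and 1156 CPM in E6.2 and 1991, 1757 and 1656 CPM in E7.2 (1.76-fold, adjusted p 0.0398). Its call was lost with the replicate block (adjusted p 0.0657) and without any one of E6.2 replicate 1 or 2 and E7.2 replicate 1 or 2. Sdc1, a surface proteoglycan of plasma cells, was at 0.276, 0.786 and 1.89 against 3.04, 3.33 and 2.34 CPM, with an adjusted p of 0.137, and passed without replicate 3 of both lines (log2 fold change 2.58, adjusted p 0.0112). Tnfrsf17, the plasma cell receptor for B-cell activating factor, had at most 1 count in any of the 6 libraries. Gcsam, a germinal-centre signalling adaptor, was at 161, 151 and 194 against 504, 437 and 299 CPM (2.45-fold, adjusted p 0.00762, and 0.0976 with only the 6 libraries fitted). Of the 12 B identity factors none passed with all libraries, and without replicate 3 of both lines Pou2f2, which encodes Oct-2, was higher (log2 fold change 1.501, adjusted p 0.0445). In these bulk samples, fewer cells of a type and less RNA per cell cannot be told apart.

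Of the 33 tested genes of B-cell receptor signalling, 4 were higher and none lower, with a median of 0.36, and without replicate 3 of both lines 14 were higher and none lower, with a median of 0.34, beside 2.24% and 17.0% of all genes called. Cd79a, a signalling chain of the receptor, was at 54.6, 51.6 and 85.3 CPM in E6.2 and 125, 131 and 229 CPM in E7.2 (2.54-fold, log2 fold change 1.34, SE 0.25, adjusted p 0.00952), a call lost when only the 6 libraries were fitted (adjusted p 0.175). Ptpn6 (Shp-1), a phosphatase that dampens the signal, was at 55.9, 56.2 and 61.0 against 138, 161 and 151 CPM (2.60-fold, adjusted p 0.0120). Inpp5d (Ship-1), a lipid phosphatase that also dampens it, was 1.92-fold higher, and Vav1, a guanine nucleotide exchange factor, 1.54-fold higher. The called members thus held both the receptor chain and inhibitory phosphatases. Parental libraries held 118, 52.4 and 58.2 CPM of Ptpn6. Vav1 lost its call when only the 6 libraries were fitted (adjusted p 0.211). Calls of Ptpn6 and Inpp5d were lost in leave-one-out fits, Ptpn6 without E6.2 replicate 1 or E7.2 replicate 2 and Inpp5d without E6.2 replicate 2 or E7.2 replicate 1 or 2. Plcg2, a phospholipase of the pathway, had a log2 fold change of 1.11 without replicate 3 of both lines (adjusted p 0.0123) and of 0.71 with all libraries, where it did not pass.

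Among the 36 cytokine receptor and NF-kB genes 3 were higher, with a median of 0.03, beside 2.24% of all genes called. Without replicate 3 of both lines 8 were higher and 1 lower, beside 9.78% and 7.27% of all genes. Tnfrsf13c, the receptor for the survival factor Baff, was at 12.0, 13.7 and 12.9 CPM in E6.2 and 34.4, 33.5 and 33.8 CPM in E7.2, 2.64-fold higher (log2 fold change 1.40, SE 0.20, adjusted p 0.00156). Its call held in every alternative. Il2rg, the common gamma chain of cytokine receptors, was at 1.02, 2.63 and 1.44 against 4.01, 4.75 and 5.26 CPM, but both lines lay far below the 39.4 to 48.4 CPM of E7.1. Its call was lost when only the 6 libraries were fitted (adjusted p 0.333). Traf1, an NF-kB target and signalling adaptor, was 2.13-fold higher, a call lost without E6.2 replicate 1 or E7.2 replicate 1 or 2. Of the 22 costimulation and homing genes 2 were higher, and without replicate 3 of both lines 4 were higher and 3 lower, beside 9.78% and 7.27% of all genes. Cxcr5, the receptor that guides B cells into follicles, was at 9.72, 13.1 and 22.3 against 39.3, 41.8 and 52.0 CPM (2.95-fold, adjusted p 0.0121), and lost its call without E6.2 replicate 1 or 2. Itgal, a chain of the integrin LFA-1, was 2.03-fold higher (adjusted p 0.00385, and 0.172 with only the 6 libraries fitted).

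With all libraries, antigen presentation genes gave 1 call per list, beside 2.24% of all genes called. Of 25 MHC-II presentation genes 1, H2-DMb2, was higher, with a list median of 0.14, and of 22 MHC-I presentation genes 1, H2-M3, was higher, with a median of 0.26. H2-DMb2, a chain of the peptide-loading H2-DM that has a near-identical neighbour, was at 25.4, 36.0 and 44.4 CPM in E6.2 and 67.1, 68.6 and 57.5 CPM in E7.2 (1.82-fold, adjusted p 0.0358). H2-M3, a nonclassical class I chain, was at 24.0, 23.8 and 23.5 against 33.6, 33.0 and 32.6 CPM (1.39-fold, adjusted p 0.0367). Both calls were lost with the replicate block, at adjusted p of 0.0579 and 0.0695, and without any one of E6.2 replicate 1 or 2 and E7.2 replicate 1 or 2. Without replicate 3 of both lines 7 MHC-II genes and 8 MHC-I genes were higher and 1 of each was lower, beside 9.78% of all genes higher and 7.27% lower. H2-Eb1, a class II beta chain, illustrates the gap: it was at 86.9, 102 and 245 CPM in E6.2 and 180, 200 and 193 CPM in E7.2, so only E6.2 replicate 3 lay above the E7.2 libraries.

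Immunoglobulin and innate lists stand beside a share of 2.24% of all genes called, or 17.0% without replicate 3 of both lines. Of the 23 immunoglobulin locus genes that passed the filter, Iglv1, a lambda variable segment, was 2.56-fold higher in E7.2 and Igkj3, a kappa joining segment, 2.17-fold lower. Pairs that also mapped to similar segments were not counted. The call of Iglv1 was lost without any one of E6.2 replicate 1 or 2 and E7.2 replicate 1 or 2 (adjusted p 0.0501 to 0.0735), and that of Igkj3 without E6.2 replicate 1 or E7.2 replicate 1 or 2 (0.130 to 0.194). Leaving out replicate 3 of both lines gave 5 higher and 3 lower immunoglobulin genes. Of the 35 interferon-stimulated genes only Tor3a passed with all libraries (1.95-fold higher, adjusted p 0.00415, and 0.0928 with only the 6 libraries fitted), and without replicate 3 of both lines 4 were higher and 2 lower. Among 23 genes of the Bcl2 family and death receptors only Bid, a pro-death linker, passed (1.57-fold higher), a call lost without E6.2 replicate 2 or E7.2 replicate 1 or 2, and 3 were higher without replicate 3 of both lines. Psrc1, a mitotic microtubule protein, was the only one of 29 p53 targets called, at 1.26, 0.847 and 0.932 against 8.35, 9.33 and 8.40 CPM (log2 fold change 3.11, adjusted p 0.000137). The list median of the p53 targets was -0.09, and without replicate 3 of both lines 2 were higher and 2 lower, where 17.0% of all genes were called.

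Genes of carbon metabolism leaned towards E7.2 in the medians, and their calls stand beside 2.24% of all genes called. Of 33 glycolysis genes 27 had a log2 fold change above 0, beside 45.4% of all tested genes. The median was 0.41 and 2 were called higher. Pfkl, the liver-type phosphofructokinase, was at 18.5, 20.3 and 34.8 CPM in E6.2 and 66.3, 76.0 and 56.9 CPM in E7.2 (log2 fold change 1.44, SE 0.31, adjusted p 0.0235), and Pdk3, a kinase that shuts pyruvate dehydrogenase, was 1.62-fold higher (adjusted p 0.0468). Pdk3 did not pass with the replicate block (adjusted p 0.0774), and both calls were lost without any one of E6.2 replicate 1 or 2 and E7.2 replicate 1 or 2. Without replicate 3 of both lines 15 members were higher and none lower, with a median of 0.65, beside 9.78% and 7.27% of all genes. Ldha, which makes lactate, was at 181 and 222 CPM in replicates 1 and 2 of E6.2 and 678 and 682 CPM in those of E7.2, while replicate 3 held 291 and 347 CPM. Of 22 hypoxia-inducible genes 3 were higher, and 7 without replicate 3 of both lines. Ddit4, an inhibitor of mTORC1, rose by a log2 fold change of 1.31, and Fam162a and Narf rose 1.80-fold and 1.48-fold. Ddit4 lost its call without E6.2 replicate 1 or 2, Fam162a without E6.2 replicate 2 or E7.2 replicate 1 or 2, and Narf without E7.2 replicate 1 or 2.

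Within cholesterol metabolism the signs of the fitted values differed by role. All 20 synthesis enzymes had a log2 fold change above 0 and all 7 efflux genes one below 0, beside 45.4% of all tested genes above 0. No synthesis gene was called and 2 efflux genes were called lower, beside 2.24% of all genes called and 0.726% called lower. Nr1h3, the sterol-sensing nuclear receptor LXR alpha, was at 2.68, 3.02 and 1.68 CPM in E6.2 and 0.660, 0.507 and 0.738 CPM in E7.2 (3.87-fold lower, log2 fold change -1.95, SE 0.36, adjusted p 0.00969), and E6.2 lay above all 12 other libraries. Abcg1, a cholesterol exporter that LXR induces, was at 18.8, 20.3 and 9.29 against 2.54, 3.33 and 1.60 CPM (6.45-fold lower, adjusted p 0.0256). The call of Nr1h3 was lost without E7.2 replicate 1 or 2, and that of Abcg1 without any one of E6.2 replicate 1 or 2 and E7.2 replicate 1 or 2. For Abcg1 the parental libraries held 2.21, 15.01 and 15.1 CPM, so 1 of them lay in the range of E7.2, while E6.1 held 20.7, 9.09 and 16.7 CPM and E7.1 4.10, 2.48 and 3.16 CPM. The list median was 0.56 over 36 genes. Without replicate 3 of both lines 15 genes of the list were higher and 4 lower, the 4 being the efflux genes Nr1h3, Abcg1, Apoe and Abca1, and the median was 0.90, beside 17.0% of all genes called. Fdps, a synthesis enzyme, was at 140, 140 and 186 CPM in E6.2 and 374, 389 and 160 CPM in E7.2, so replicate 3 of E7.2 fell into the range of E6.2.

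Fatty acid metabolism, with 33 genes and a median of 0.25, had no call, and 17 members were higher and none lower without replicate 3 of both lines, where 9.78% of all genes were called higher. Scd1, which makes monounsaturated fatty acids, was at 59.8, 71.9 and 51.7 CPM in E6.2 and 301, 297 and 88.4 CPM in E7.2 (adjusted p 0.0851), and passed without replicate 3 of both lines (log2 fold change 2.22, adjusted p 0.0232). Parental libraries held 368, 103 and 96.1 CPM of Scd1. Oxidative phosphorylation showed no call in 78 genes, with a median of 0.14, and 15 higher without replicate 3 of both lines. The mitochondrial ribosomal proteins had no call in 76 genes and 9 higher without replicate 3. The 84 cytosolic ribosomal protein genes had no call, a median of 0.29 and 1 gene higher without replicate 3. These counts without replicate 3 stand beside 9.78% of all genes called higher, and those with all libraries beside 2.24% called.

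**Figure D3:**
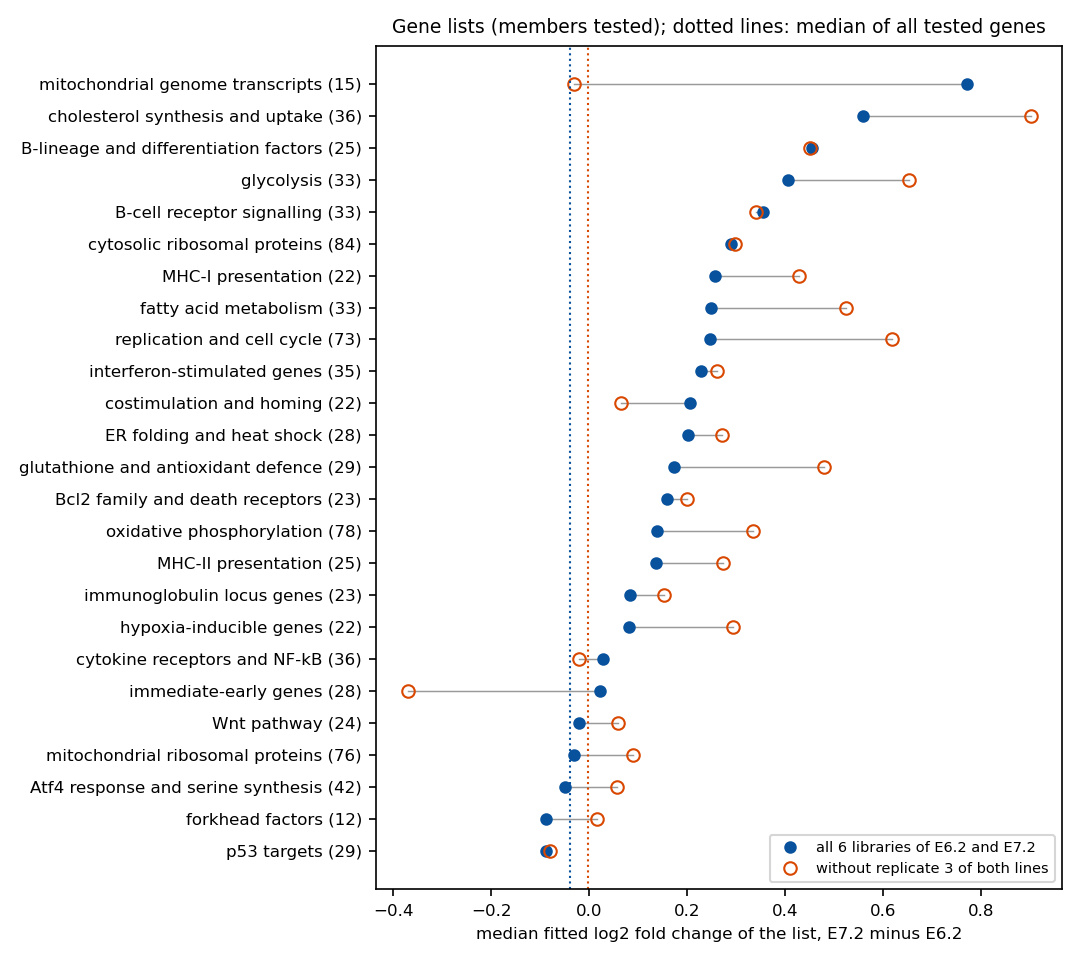
Median log2 fold change, E7.2 minus E6.2, of 25 gene lists, with all libraries (filled blue) and without replicate 3 of both lines (open orange); dotted lines mark the medians of all tested genes. The B-lineage and B-cell receptor lists sit at 0.45 and 0.36 with all libraries and move little, while glycolysis, cholesterol and replication lists move to the right and mitochondrial transcripts drop from 0.77 to -0.03.

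The calls among replication and cell cycle genes changed with replicate 3. With all libraries 1 of 73 was called, Ccnd3, a G1 cyclin, at 36.0, 36.8 and 45.02 CPM in E6.2 and 119, 127 and 92.8 CPM in E7.2 (2.88-fold higher, adjusted p 0.0392), and the list median was 0.25. The Ccnd3 call was lost without any one of E6.2 replicate 1 or 2 and E7.2 replicate 1 or 2. Parental libraries held 110, 42.3 and 35.2 CPM of Ccnd3, from the level of E6.2 to that of E7.2. Without replicate 3 of both lines 39 members were higher and 2 lower, with a median of 0.62, beside 9.78% and 7.27% of all genes. Uhrf1, a maintenance factor of DNA methylation, was at 51.1, 60.3 and 31.7 CPM in E6.2 and 173, 186 and 19.4 CPM in E7.2. Replicate 3 of E7.2 was thus the lowest of the 6 libraries. Cdkn1a, the cyclin-kinase inhibitor p21, was lower in E7.2 without replicate 3 (log2 fold change -1.41, adjusted p 0.0250) and at -0.71 with all libraries, where it did not pass.

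Calls in the stress and signalling lists stand beside 2.24% of all genes with all libraries. Without replicate 3 of both lines that share was 17.0%, with 9.78% higher and 7.27% lower. Of 42 genes of the Atf4 response and serine synthesis, Slc7a11 and Ddit4 were higher and the median was -0.05, and without replicate 3 of both lines 4 were higher and 2 lower. Of 29 genes of glutathione and antioxidant defence Slc7a11 alone was called, with a median of 0.17, and without replicate 3 of both lines 6 were higher with a median of 0.48. No gene passed among the 28 of ER folding and heat shock, where Sdf2l1, an ER chaperone cofactor, came nearest (8.90, 14.7 and 17.8 against 37.3, 37.3 and 53.9 CPM, adjusted p 0.0501), and 3 were higher and 2 lower without replicate 3 of both lines. None of the 28 immediate-early genes passed, and without replicate 3 of both lines 4 were lower, Fos and Fosb among them, with a median of -0.37. In the Wnt pathway Daam1, a formin activated by Dishevelled, was the 1 gene of 24 called, at 18.2, 19.6 and 19.6 against 65.2, 66.7 and 50.6 CPM (3.18-fold, log2 fold change 1.67, SE 0.14, adjusted p 6.86e-06), and passed in every alternative. Of the Wnt genes 3 were higher and 2 lower without replicate 3 of both lines.

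Called genes were spread over the genome. The share called was 1.23% to 3.61% on the autosomes and the X chromosome, and chromosome medians ran from -0.10 to 0.02 on the log2 scale. There were 4 runs of 3 neighbouring called genes of 1 direction. On chromosome 5, Golga3, Ankle2 and Pgam5 (5:110176701-110269913) were 1.81-fold, 1.70-fold and 1.98-fold higher in E7.2. E6.2 lay below all 12 other libraries for each of them. On chromosome 19, Ldb1, Pprc1 and Nolc1 (19:46032593-46085528) had log2 fold changes of 1.14, 1.07 and 1.17, and on chromosome 11 Cd300ld, Rab37 and Cd300lf (11:114982274-115162236) were 4.95-fold, 3.61-fold and 6.70-fold higher at no more than 2.03 CPM. On chromosome 3, Pex5l, Ttc14 and Ccdc39 (3:32949408-33844310) were 4.57-fold, 1.94-fold and 5.31-fold lower. Ldb1 overlaps Pprc1, Ttc14 overlaps Ccdc39 and Cd300lf lies within Rab37, each on opposite strands. Pairs over exons of both genes were not counted. The counting did not use strand, so other pairs within an overlap may come from either gene. The log2 fold change of Cd300ld, 2.31, was 2.94 without E6.2 replicate 2, and that of Ccdc39, -2.41, was -1.62 without E6.2 replicate 1. Ccdc39 was not called with the replicate block (adjusted p 0.0551) or without any single library but E6.2 replicate 3. The call of Rab37 was also lost without any single library but E6.2 replicate 3, and that of Cd300lf without any one of E6.2 replicate 1 or 2 and E7.2 replicate 1 or 2. Cd300ld lost its call without E6.2 replicate 1 or E7.2 replicate 1 or 2, Ldb1 without E6.2 replicate 1 or 2, Ttc14 without E6.2 replicate 1 or 2 or E7.2 replicate 2, and Pex5l without E7.2 replicate 1 or 2. The adjusted p values of these lost calls reached 0.195. With only the 6 libraries fitted, every run member tested lost its call, Golga3, Ankle2 and Pgam5 included (adjusted p 0.0615 to 0.334). Cd300ld was not tested in that fit.

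Replicate 3 deviated alike in the 2 lines. Across the 13904 genes, the deviations of replicate 3 from the line means correlated at r = 0.426 between E6.2 and E7.2. With replicates 1 and 2 of the other line r was -0.366 to -0.214. Deviations within a line cancel out, so these negative values follow from the 0.426 and are no separate result. All are descriptions across genes, which are not independent. Of the 1055 genes that moved at least 2-fold the same way, 555 were raised and 500 lowered. Tent5c, a poly(A) polymerase of plasma cells, was at 1.46, 2.03 and 37.6 CPM in E6.2 and 6.89, 7.84 and 123 CPM in E7.2. Ccr7, a homing receptor for T-cell zones, was at 4.68, 6.83 and 71.4 CPM and 4.94, 6.32 and 89.7 CPM. Npr2, Ms4a4c and Smtn were the other 3 genes most raised in both lines. Rmi2, a genome stability factor, fell to 4.75 CPM from 24.3 and 29.1 CPM in E6.2 and to 5.71 CPM from 41.1 and 40.0 CPM in E7.2. Tns3, Pik3cg, Kbtbd6 and Piwil2 were the others most lowered in both.

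The gene lists moved in part alike and in part apart. Cytosolic ribosomal proteins were raised in replicate 3 by a median of 1.18 in E6.2 and 1.22 in E7.2 on the log2 scale, and took 11.9% and 13.95% of the counts against 4.985% to 7.37% in the other 4 libraries. Replication and cell cycle genes were lowered by a median of 0.213 in E6.2 and 1.695 in E7.2. Mitochondrial transcripts went opposite ways, with medians of -2.267 in E6.2 and 1.445 in E7.2. In replicate 3 of E6.2 the 6 neighbouring genes from mt-Co2 to mt-Nd4l stood at 0.0671% to 1.82% of their median over the other 14 libraries, and the other 7 mitochondrial messenger RNAs at 41.5% to 190%. These 6 genes were also low in E6.1 replicate 1 (0.0567% to 10.7%) and A20 parental replicate 1 (0.439% to 25.0%), and in part in E6.1 replicate 3 (14.1% to 28.9%). Near-identical nuclear copies lie on chromosome 1, such as Gm10925 at 24.8, 24.7 and 25.0 CPM in E6.2, and pairs with several alignments were not counted, so the levels of the 6 genes are uncertain. The part of the passage, the RNA preparation or the library in these deviations was not tested.

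**Figure D4:**
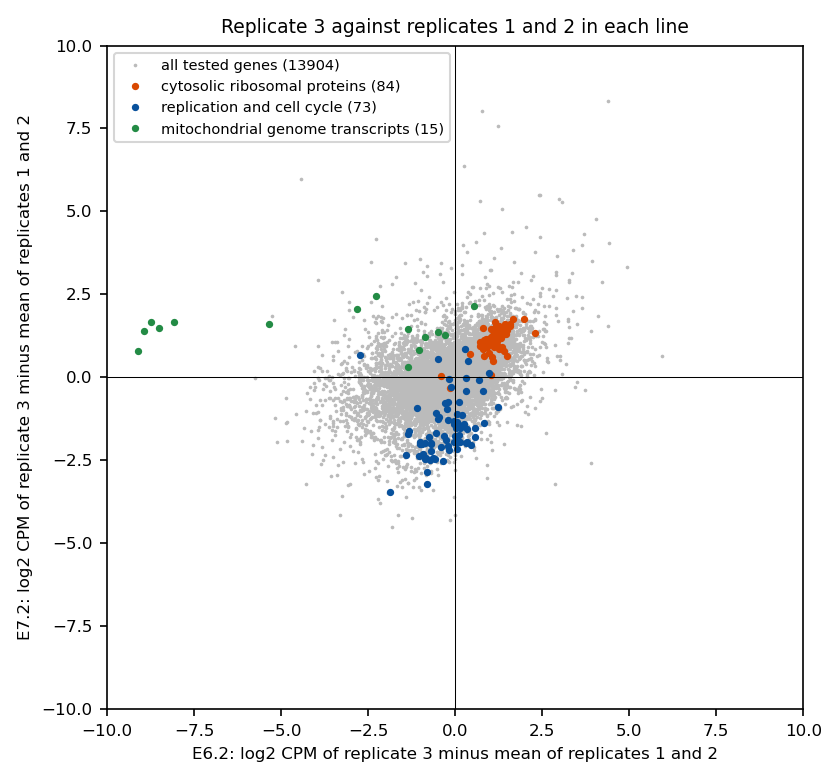
Difference of replicate 3 from the mean of replicates 1 and 2, in log2 CPM, for each of the 13904 genes in E6.2 (horizontal) and E7.2 (vertical). Ribosomal protein genes (orange) lie in the upper right, with medians of 1.18 and 1.22, replication and cell cycle genes (blue) lie low on the vertical axis, and mitochondrial transcripts (green) are spread to the left.

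**Figure D5:**
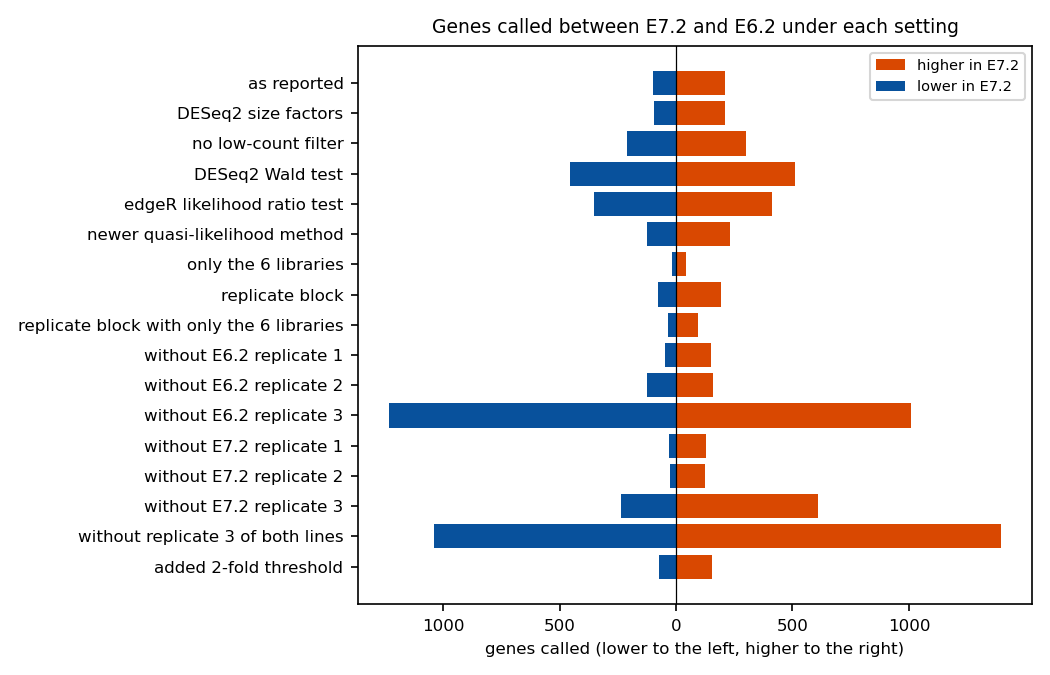
Number of genes called higher (right, orange) and lower (left, blue) in E7.2 against E6.2 as reported (211 and 101) and under each alternative. The calls rise to 1397 and 1038 without replicate 3 of both lines and fall to 44 and 18 when only the 6 libraries enter the fit.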

How the data were processed

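RNA was extracted from 3 passages of each of 5 A20 lines and sequenced on a HiSeq4000. The authors deposited raw read-pair counts per gene, made per the file headers and labels with HISAT on mm10 and featureCounts 1.5.0, without strand and without pairs that mapped to several places or genes. The 92 spike-in features, all at 0 counts, were dropped. Of 41388 genes, 40254 were matched to a symbol.

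The counts were filtered with filterByExpr by line, scaled by TMM and fitted with edgeR 4.0.16 (R 4.3.3) over all 15 libraries, line being the only factor. The quasi-likelihood test of E7.2 minus E6.2 was adjusted by Benjamini-Hochberg over 13904 genes and called at 0.05, with no fold threshold. A single gene over 3 against 3 libraries cannot go below 0.1 in an exact permutation test, so none is used. Bounds set a library at 0 to 3 counts, and intervals are 95% and cover counting error only. The scripts were tested on simulated counts. DESeq2 1.42.0 was an alternative.

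Named genes were Foxp1, the 10 largest called differences in each direction among separated genes of at least 1 CPM, the 5 called genes of smallest adjusted p in each direction with at least 20 CPM, genes the study names, up to 4 called members of each list (otherwise the 2 of smallest p), genes of replicate 3 and members of runs. Members and lists were chosen with earlier results of these data known, and genes shown to illustrate a list without replicate 3 were chosen after their values were seen. Same-numbered libraries correlated in their deviations from the line means (r = 0.174, 0.276 and 0.426 across genes), each above 0.1, so the replicate number was treated as a pairing by that rule. Unlike-numbered libraries gave 0.170 and 0.311 among replicates 1 and 2 and -0.366 to -0.214 with replicate 3, so E6.2 replicate 2 was closer to E7.2 replicate 1 than to its own number. Deviations within a line cancel out, so a shared shift of replicate 3 alone raises the correlations among replicates 1 and 2. The rule therefore cannot show a pairing by number, and the labels speak only of separate passages. Promoter sequences are from RefSeq, GRCm38.p6. Guide sequences are not shown here, and the values of some list members are not reported here.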

Additional observations from a re-analysis of the deposited data

How the results depend on the processing

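Of the 312 called genes (211 higher, 101 lower in E7.2), the count stayed within 1.5 times with DESeq2 size factors (307), the newer quasi-likelihood method (355), an added 2-fold threshold (229) and the replicate block (273). It was 510 without the low-count filter (299 and 211), 968 with the DESeq2 Wald test (512 and 456), 764 with edgeR's likelihood ratio test (412 and 352), 62 with only the 6 libraries in the fit (44 and 18) and 2435 without replicate 3 of both lines (1397 and 1038). Leaving out 1 library gave 151 to 2245 calls, 124 to 1011 higher and 27 to 1234 lower. The cause of these shifts was not tested, except that the fit of 6 libraries has fewer samples for the spread. The share called higher ran from 45% to 82.1%.

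With the replicate number as a block, a pairing that the data do not establish, 273 genes were called (195 higher and 78 lower). The block ended the calls of H2-DMb2, Jchain, Pdk3, H2-M3 and Ccdc39 and no other call of a named gene, and with only the 6 libraries it gave 128 (94 and 34).

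Without 1 library the log2 fold change of Npr2, 0.17 as reported, ran from -7.97 to 3.00, and it turned to -7.97 without E7.2 replicate 3 and to -5.11 without replicate 3 of both lines. Of the other alternative fits of named genes 166 lost the call, 45 gained one and the rest stayed on their side of the threshold. The sign differed in 39 of 1532 fits, in 15 genes, none of them called with all libraries. With only the 6 libraries fitted, 42 of the 70 called named genes tested lost the call, with adjusted p up to 0.375, and 29 with the block added, up to 0.246. Transcripts at 0 counts are known only to lie under 3 counts a library, 0.0792 to 0.118 CPM.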
